A study of Mus musculus with 6 samples.

Results

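The blood-brain barrier and pan-endothelial genes described here are 10 genes of blood vessel lining, chosen by name: the junction genes Cldn5 and Ocln, the adhesion and surface genes Cdh5, Pecam1 and Podxl, and the transporter genes Slc2a1, Mfsd2a, Slco1c1, Slco1a4 and Abcb1a. All 10 are among the 16729 genes of the deposited table, and all 10 passed the filter on low counts. RNA-seq was run on tumors that mG7080 cells (a gliomasphere culture from a mouse GBM) formed in the brains of C57BL/6 hosts (C57BL/6J in the study's methods). Hosts were either WT or Esm1 KO, with 3 tumors and 3 libraries per group (WT 1 to WT 3 and KO 1 to KO 3). Esm1 encodes Endocan, a proteoglycan that endothelial cells secrete. The deletion was in the host, and the same Esm1-carrying tumor cells were injected in both groups, 500000 per host by the study's methods. Hosts were 6 to 8 weeks old by those methods, whereas the reporting summary gives 8 to 12 weeks. RNA was extracted from resected tumor tissue, so a library holds RNA of tumor cells, vessels and adjoining brain together. In such bulk tissue fewer endothelial cells and less RNA per endothelial cell cannot be told apart.

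The endothelial cells of brain capillaries form a barrier by sealing the gaps between cells and by controlling what crosses them. Claudin-5 and occludin, the products of Cldn5 and Ocln, are membrane proteins of tight junctions. VE-cadherin (Cdh5), PECAM-1 or CD31 (Pecam1) and podocalyxin (Podxl) are found on endothelial cells of most organs, so they mark vessels with or without a barrier. GLUT1 (Slc2a1) carries glucose into the brain, MFSD2A (Mfsd2a) carries lysophospholipids with docosahexaenoic acid and restrains vesicle traffic across the cell, OATP1C1 (Slco1c1) carries thyroxine, OATP1A4 (Slco1a4) carries organic anions, and P-glycoprotein (Abcb1a, with its neighbour Abcb1b) pumps drugs back to the blood. The barrier state is kept by Wnt and beta-catenin signaling, and vessels of gliomas are often leaky. Several of these genes are also used outside vessels: Slc2a1 is induced by hypoxia in many cells, Slco1c1 is expressed in astrocytes and choroid plexus, and Podxl in some neurons and progenitors.

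Reads on genes summed to 17632070 to 22241832 per library, and the 10 genes had between 82 and 1396 reads in a library. Levels are given in CPM, counts scaled to a fixed library total after scaling with edgeR's TMM factors. One read was worth 0.0445 to 0.0570 CPM, and a count of 0 allows up to 3 reads, 0.134 to 0.171 CPM. This precision covers counting error only. The targeted gene Esm1 had 25, 21 and 82 reads in WT 1, WT 2 and WT 3, and 1, 24 and 4 reads in KO 1, KO 2 and KO 3. The library labelled KO 2 therefore held as much Esm1 as WT 1 and WT 2. The part of the gene that is deleted is not given in the sources used here, and the tumor cells carry the gene, so these reads do not settle the label. Tests of the 10 genes are given below with and without KO 2.

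Over all 6 libraries, none of the 10 genes passed an adjusted p of 0.05 (edgeR's quasi-likelihood test, adjusted by Benjamini-Hochberg over the whole table). The background was the same, with 0 of 16166 genes tested called (0.0%). DESeq2, edgeR's exact test and limma-voom also called 0 of the 10 genes, against 7.83%, 0.748% and 0.0% of the genes they tested. Before adjustment (p under 0.05) 1 of the 10 genes passed (Podxl), against 27.1% of all genes tested. The fitted level was lower in KO tumors for 5 genes (Podxl, Mfsd2a, Cldn5, Pecam1 and Cdh5) and higher for the other 5 (Abcb1a, Ocln, Slco1a4, Slc2a1 and Slco1c1). Their median log2 fold change, KO minus WT, was 0.10, beside -0.02 over all genes tested.

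With KO 2 left out, 4 of the 10 genes passed: Podxl and Mfsd2a were lower and Slco1a4 and Abcb1a higher in KO 1 and KO 3 than in the 3 WT libraries. In that comparison 28.3% of the 16279 genes tested were called lower and 24.5% were called higher, so 2 of 10 in each direction is no larger a share than that of all genes. Over WT 1, WT 2, KO 1 and KO 3, the libraries that the study's own table of results uses, 0 of the 10 genes passed, while 13.9% of 16183 genes were called lower and 2.87% higher. Before adjustment Podxl and Abcb1a passed a p of 0.05 there, against 46.2% of all genes. The same 5 genes were lower and the same 5 higher in all 3 of these comparisons. By sign of the fit alone, the 3 adhesion and surface genes were lower, 4 of the 5 transporters were higher, and of the junction genes Cldn5 was lower and Ocln higher. Over all 6 libraries none of these was called, and 8289 of 16166 genes tested had a lower fitted level. Of the 20 further transporters described below, 14 were lower and 6 higher in that fit, so the signs do not describe transporters at large.

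**Figure D1:**
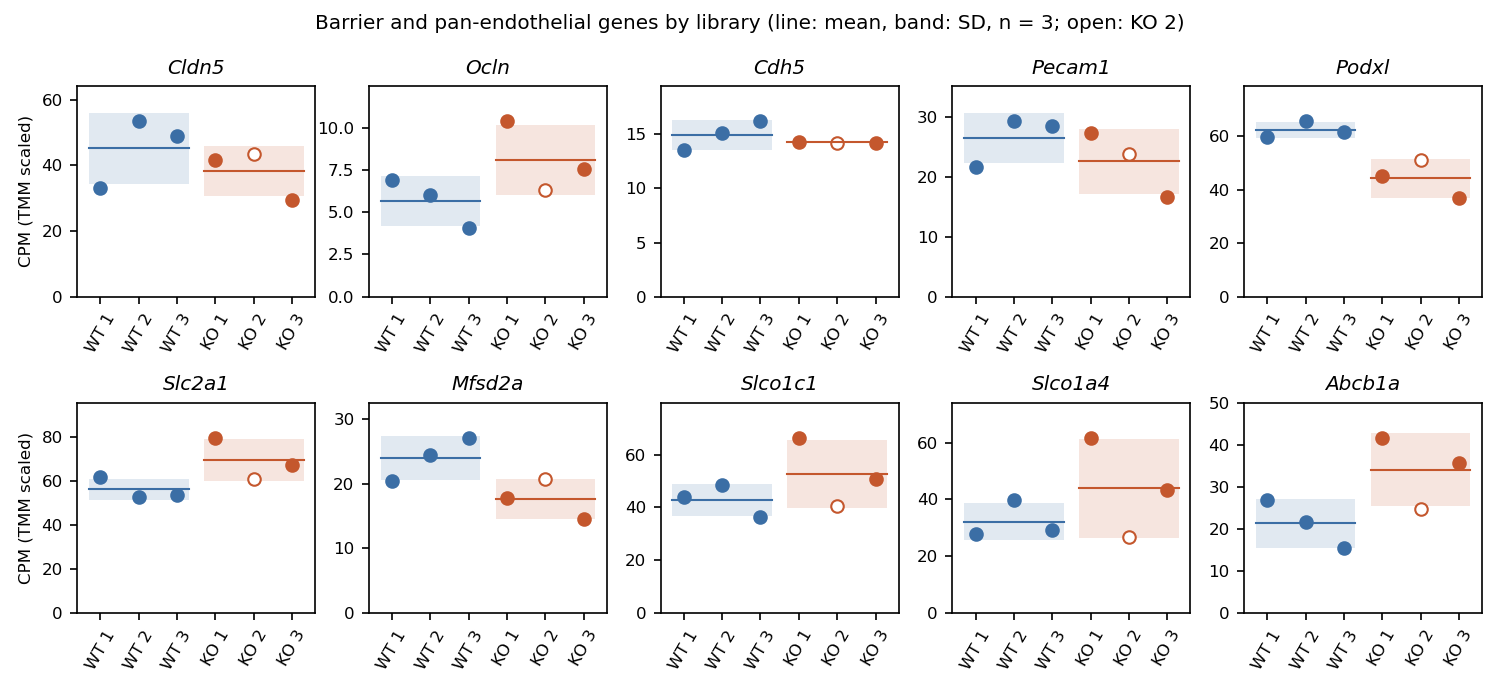
Level of each of the 10 genes in every library, in CPM on a linear axis from 0, with WT libraries in blue and KO libraries in orange. Lines are group means and bands are SD (n = 3), and the open circle is the library labelled KO 2. Podxl is the one gene whose 3 KO libraries (36.8 to 51.1 CPM) lie below all 3 WT libraries (59.7 to 65.7 CPM). For 8 of the 10 genes KO 2 sits among the WT libraries, and the share of all genes that do so was not computed.

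For 8 of the 10 genes the level in KO 2 fell between the lowest and the highest WT library, and for the other 2, Podxl and Slco1a4, it was below them. The share of all genes with KO 2 inside the WT range was not computed, so this count does not set the 10 genes apart. All 3 KO libraries lay below all 3 WT libraries for 1 gene, Podxl, as they did for 14.6% of all genes tested. All 3 lay above for 0 of the 10, against 13.2% of all genes. KO 1 and KO 3 taken alone lay below all WT libraries for 2 genes (Podxl and Mfsd2a) and above all of them for 5 (Slc2a1, Ocln, Slco1c1, Slco1a4 and Abcb1a), as they did for 40.4% and 37.5% of all genes tested. For Cldn5, Cdh5 and Pecam1 even these 2 KO libraries overlapped with the WT range.

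**Figure D2:**
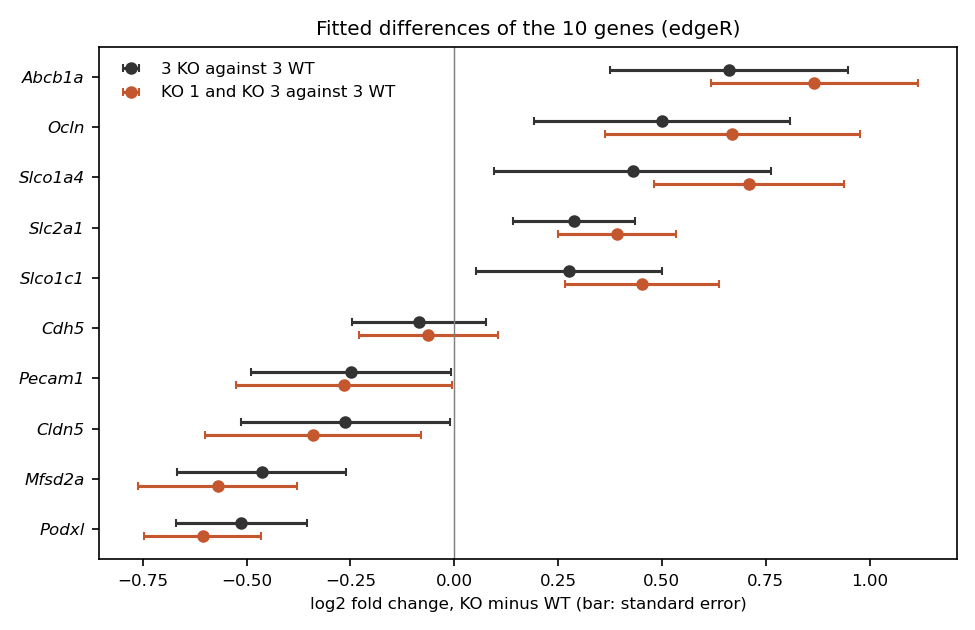
Fitted log2 fold change (KO minus WT) of the 10 genes on the x axis with standard errors, for all 6 libraries (black) and with KO 2 left out (orange). Values run from -0.51 (Podxl) to 0.66 (Abcb1a) over the 6 libraries and from -0.61 to 0.87 without KO 2, and no gene changes side between the fits.

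Among the junction genes, Cldn5 (chr16:18776847-18778262, + strand, GRCm38, a gene of a single exon) had 33.1, 53.5 and 49.0 CPM in WT and 41.7, 43.5 and 29.5 CPM in KO tumors, libraries being given in the order 1, 2, 3 throughout. The lowest level was in KO 3, and 2 KO libraries lay inside the WT range. Its log2 fold change was -0.26 (SE 0.25, 95% interval -0.88 to 0.35, adjusted p = 0.447, edgeR), and without KO 2 it was -0.34 (adjusted p = 0.302). Ocln (chr13:100496507-100552718, - strand) was the lowest of the 10 genes, at 6.90, 6.00 and 4.05 CPM in the WT libraries and 10.4, 6.32 and 7.55 CPM in the KO libraries. KO 1 and KO 3 stood above all WT libraries and KO 2 among them. The log2 fold change of Ocln was 0.50 (SE 0.31, adjusted p = 0.270, edgeR) and 0.67 (adjusted p = 0.111) without KO 2. The interval over the 6 libraries, -0.25 to 1.25, covers both no difference and a doubling of the level.

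The pan-endothelial genes differed among themselves in how steady they were. Cdh5 (chr8:104101625-104144511, + strand) stood at 13.5, 15.1 and 16.2 CPM in the WT libraries and at 14.3, 14.2 and 14.2 CPM in the KO libraries. Its 3 KO libraries had an SD of 0.054 CPM and lay inside the WT range. Its log2 fold change was -0.09 (SE 0.16, 95% interval -0.48 to 0.31, adjusted p = 0.696, edgeR) and -0.06 (adjusted p = 0.766) without KO 2. Pecam1 (chr11:106654217-106750628, - strand) had 21.7, 29.3 and 28.5 CPM in WT and 27.3, 23.8 and 16.7 CPM in KO tumors. KO 3 alone was below the WT range, and the log2 fold change of -0.25 (SE 0.24, adjusted p = 0.450, edgeR) did not pass, nor did -0.26 (adjusted p = 0.412) without KO 2.

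Podxl (chr6:31519488-31563981, - strand), which encodes a sialomucin of the luminal face of endothelium, was the one gene of the 10 whose groups did not overlap. It had 59.7, 65.7 and 61.7 CPM in the WT libraries (62.4 ± 3.09, SD, n = 3) and 45.01, 51.1 and 36.8 CPM in the KO libraries (44.3 ± 7.20, SD, n = 3). The ratio of means, KO to WT, was 0.710. The log2 fold change was -0.51 (SE 0.16, 95% interval -0.90 to -0.13), with an unadjusted p of 0.0170 and an adjusted p of 0.184 (edgeR). Without KO 2 Podxl fell by 0.61 on the log2 scale (SE 0.14, adjusted p = 0.0191, edgeR), and over the 4 libraries of the study's table the value was -0.63 (adjusted p = 0.0695).

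Of the 5 transporters, Mfsd2a was the one with a lower fitted level. Mfsd2a (chr4:122946850-122961188, - strand) had 20.4, 24.5 and 27.1 CPM in WT and 17.7, 20.7 and 14.5 CPM in KO tumors. KO 2 lay just above WT 1, and the other KO libraries lay below all WT libraries. Its log2 fold change was -0.46 (SE 0.20, adjusted p = 0.188, edgeR). Without KO 2 it was -0.57 (SE 0.19, adjusted p = 0.0480, edgeR), just past the threshold. The promoter of Mfsd2a is shown because it held letters that the TCF and LEF factors of Wnt signaling recognise, and that of Slco1a4, a transporter with a higher fitted level, is shown for contrast.

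Mfsd2a, 250 bases before the RefSeq start (GRCm38.p6 chr4:122961189-122961438, - strand): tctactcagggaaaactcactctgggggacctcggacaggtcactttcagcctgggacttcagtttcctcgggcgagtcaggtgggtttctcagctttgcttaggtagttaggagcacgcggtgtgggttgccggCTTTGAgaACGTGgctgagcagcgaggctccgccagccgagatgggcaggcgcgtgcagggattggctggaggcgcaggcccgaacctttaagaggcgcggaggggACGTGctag

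Slco1a4, 250 bases before the RefSeq start (GRCm38.p6 chr6:141856221-141856470, - strand): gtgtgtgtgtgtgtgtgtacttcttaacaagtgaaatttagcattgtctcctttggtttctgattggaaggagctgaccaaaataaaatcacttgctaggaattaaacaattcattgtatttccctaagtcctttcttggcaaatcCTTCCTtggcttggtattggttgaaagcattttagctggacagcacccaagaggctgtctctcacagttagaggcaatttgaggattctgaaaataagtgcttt

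Capitals mark the motifs searched on both strands. For Mfsd2a these were CTTTGA (TCF/LEF) with its first base 115 bases before the start and the hypoxia response letters ACGTG at 107 and 9 bases. For Slco1a4 they were CTTCCT, the reverse complement of the ETS letters AGGAAG, 104 bases before the start. The set of RefSeq promoters used here held 7 of the 10 genes, and Podxl, Cdh5 and Pecam1 had no entry in that set. CTTTGA was found in the promoters of Mfsd2a and Abcb1a and in 13.8% of all 32851 promoters of the same length. The RefSeq start of Abcb1a lies 92986 bases before the gene start printed for it here, which is the GENCODE one, so the promoter searched does not adjoin that gene model. ACGTG was found in those of Mfsd2a and Slc2a1 (16.6% of all), AGGAAG in those of Abcb1a, Slco1a4 and Slco1c1 (29.5% of all), and a second ETS form, CGGAAG, in none of the 7 (13.6% of all). These motifs do not overlap one another in the 2 stretches shown. The genes with CTTTGA had fitted differences of opposite sign.

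Slc2a1 (chr4:119108711-119137983, + strand) had 61.7, 52.9 and 53.7 CPM in WT and 79.6, 61.0 and 67.3 CPM in KO tumors. KO 1 and KO 3 were above all WT libraries, and KO 2 was just under WT 1. The fitted log2 difference was 0.29 (SE 0.15, adjusted p = 0.213, edgeR) and 0.39 (adjusted p = 0.0593) without KO 2. Summed over the 15 genes of a hypoxia and glycolysis list, with which Slc2a1 shares regulation by oxygen, the level was 1625 to 2052 CPM in WT, 2460 and 2919 CPM in KO 1 and KO 3 and 1971 CPM in KO 2. Aldoa alone, the most abundant gene of the list, had 1045, 603 and 789 CPM in WT and 1484, 899 and 1823 CPM in KO tumors. The higher sum in KO 1 and KO 3 thus largely follows Aldoa and does not describe the list as a whole. Without KO 2, when 28.3% of all genes fell and 24.5% rose, 2 genes of the list fell and 4 rose. Under total count scaling without KO 2, 3 fell and 2 rose, where 6014 of the 16279 genes tested fell and 2526 rose. The part of that list in the Slc2a1 values was not tested.

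Slco1c1 (chr6:141524368-141570177, + strand) had 44.0, 48.4 and 36.4 CPM in WT and 66.5, 40.7 and 50.7 CPM in KO tumors, with KO 2 inside the WT range. Its log2 fold change was 0.28 (SE 0.22, adjusted p = 0.374, edgeR) and 0.45 (adjusted p = 0.0831) without KO 2. Slco1a4 (chr6:141805440-141856199, - strand) lies on the same chromosome and had 27.8, 39.7 and 29.2 CPM in WT and 61.8, 26.8 and 43.3 CPM in KO tumors. KO 1 was the highest library of both genes, and KO 2 was the lowest library of Slco1a4. The log2 fold change of Slco1a4 was 0.43 over the 6 libraries (SE 0.33, adjusted p = 0.358, edgeR). Without KO 2 it rose by 0.71 (SE 0.23, adjusted p = 0.0435, edgeR), and without KO 1 the value was 0.10 (adjusted p = 0.845). The paralog Slco1a5, which shares 100 of the 50-base words of Slco1a4 (1.61% of its 6407 words were found in any other gene), had 0.171 to 0.857 CPM. Slco1a6 and Slco1a1 were not analysed here.

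Abcb1a (chr5:8660077-8748575, + strand) had the highest log2 fold change of the 10 genes, with 27.0, 21.6 and 15.3 CPM in WT and 41.7, 24.7 and 35.8 CPM in KO tumors. KO 1 and KO 3 were above all WT libraries, and KO 2 was among them. This gave a log2 fold change of 0.66 (SE 0.29, 95% interval -0.03 to 1.36, adjusted p = 0.187, edgeR), and without KO 2 the value was 0.87 (SE 0.25, adjusted p = 0.0318, edgeR). Its neighbour Abcb1b (chr5:8798147-8866315, + strand), the second rodent gene for P-glycoprotein, was lower in KO tumors, at 19.2, 29.8 and 30.1 CPM in WT and 5.99, 19.9 and 6.40 CPM in KO tumors. The log2 fold change of Abcb1b was -1.31 over the 6 libraries (SE 0.53, adjusted p = 0.184, edgeR), and without KO 2 it fell by 2.08 (SE 0.26, adjusted p = 0.00798, edgeR).

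With TMM factors, the sum of the pair ran from 42.2 CPM in KO 3 to 51.3 CPM in WT 2. This narrow range depends on those factors, which were 0.911 and 0.864 in KO 1 and KO 3 and 1.026 to 1.097 in WT. Without them the sums of KO 1 and KO 3 would stand lower relative to WT. The pair had 971, 993 and 922 reads in WT and 836, 1002 and 810 in KO tumors. The division of the pair also differed, and a share of its reads does not depend on scaling. Abcb1a made up 58.4%, 42.0% and 33.7% of the pair's reads in WT 1, WT 2 and WT 3, with 95% Wilson intervals of 55.3 to 61.4, 39.0 to 45.1 and 30.8 to 36.8. It made up 87.4% in KO 1 (85.0 to 89.5) and 84.8% in KO 3 (82.2 to 87.1). In KO 2 it made up 55.3% (52.2 to 58.3), which is inside the WT range. Of the 5459 words of 50 bases in Abcb1a transcripts, 22.5% also occur in other genes, 889 of them in Abcb1b. The methods state that only uniquely mapped reads were counted, so the shared stretches may count for neither gene and the levels of both are uncertain to that degree. An antisense gene model, Gm42686, overlaps 10.1% of the exonic bases of Abcb1a, and whether the counts used strand is not given in the sources used here.

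**Figure D3:**
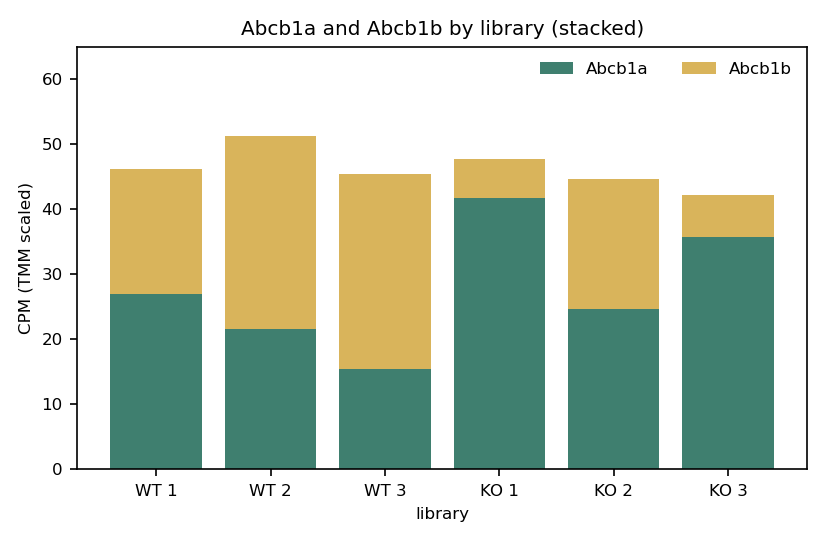
CPM of Abcb1a (green) and Abcb1b (yellow), stacked, in each library on an axis from 0. The summed height, which depends on the TMM factors, runs from 42.2 to 51.3 CPM in all 6 libraries. The Abcb1a share, which does not, is 33.7% to 58.4% in WT, 55.3% in KO 2 and 84.8% and 87.4% in KO 3 and KO 1.

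A level in bulk tissue depends on how much vessel RNA the tissue holds. Each gene was therefore set against other endothelial genes of the same library, as its log2(CPM + 0.5) minus the mean of 30 further pan-endothelial genes such as Tek, Tie1, Kdr and Erg. A factor that scales a whole library leaves this ratio unchanged but for the pseudocount. The reference mean itself was 3.06, 3.33 and 3.39 in WT and 3.31, 3.22 and 2.97 in KO libraries, so the groups overlapped. An exact two-sided permutation test over 3 against 3 libraries cannot go below p = 0.1.

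**Figure D4:**
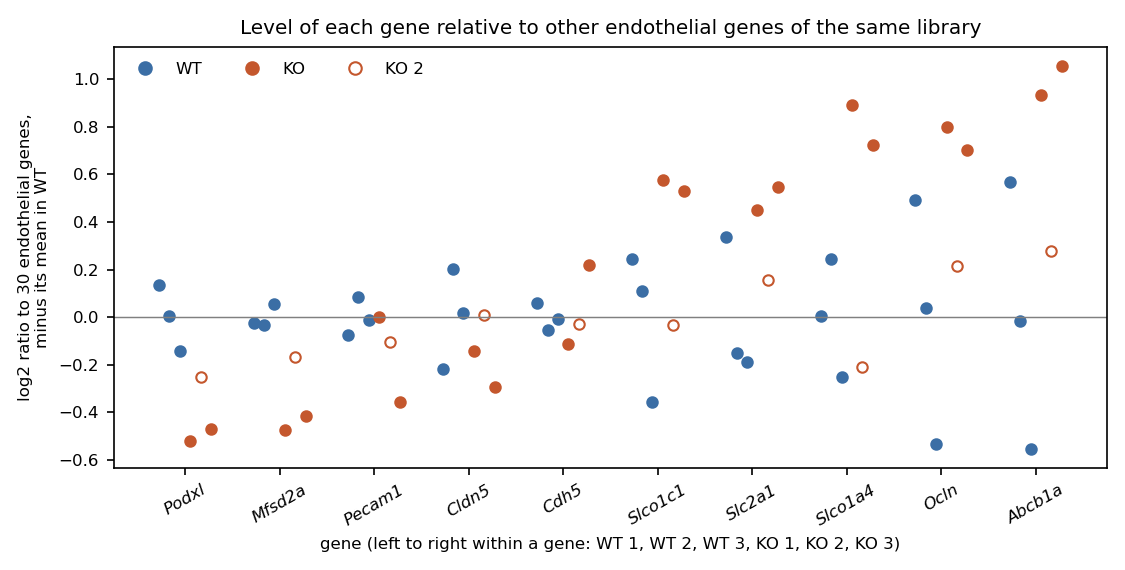
Level of each gene relative to 30 other endothelial genes of the same library, on the log2 scale and centred on the WT mean, 1 point per library with WT in blue, KO in orange and KO 2 open. All 3 KO points lie below all WT points for Podxl and Mfsd2a, and the groups overlap for the other 8 genes. The share of all genes that separate so was not computed on this scale. In plain CPM 14.6% of all genes tested had all 3 KO libraries below all WT libraries.

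Podxl relative to endothelial RNA stood at 2.85, 2.72 and 2.57 in WT and 2.19, 2.46 and 2.24 in KO libraries. The difference was -0.41 (exact permutation p = 0.1, the smallest possible). Mfsd2a stood at 1.33, 1.32 and 1.40 in WT and 0.88, 1.18 and 0.94 in KO libraries, a difference of -0.35 (exact permutation p = 0.1). For both, KO 2 was the KO library closest to WT. The ratio of Cdh5 differed by 0.03 (exact permutation p = 0.9), that of Pecam1 by -0.15 (p = 0.3 in the same exact test) and that of Cldn5 by -0.14 (exact p = 0.4). On the other side the differences were 0.76 for Abcb1a, 0.57 for Ocln and 0.38 for Slc2a1 (exact permutation p = 0.2 each), and 0.47 for Slco1a4 and 0.36 for Slco1c1 (exact permutation p = 0.3 each). Without KO 2 the differences were -0.50 for Podxl, -0.44 for Mfsd2a, -0.22 for Cldn5, -0.18 for Pecam1 and 0.05 for Cdh5. They were 0.99 for Abcb1a, 0.81 for Slco1a4, 0.75 for Ocln, 0.56 for Slco1c1 and 0.50 for Slc2a1. Adjusted over the 10 genes, the smallest p of these exact tests was 0.375, so none passed. By sign alone, the difference relative to endothelial RNA was negative for Mfsd2a and positive for the other transporters, with none past the threshold. Within a library, Slco1a4 stood at 1.36, 1.62 and 1.07 times the CPM of Mfsd2a in WT and at 3.48, 1.30 and 2.98 times in KO 1, KO 2 and KO 3.

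Levels of different genes were compared per transcript length, in the FPKM that the authors computed. In WT tumors Cldn5 was the most abundant, at 34.2 ± 9.11 FPKM (SD, n = 3), followed by Slc2a1 at 23.2 ± 1.26, and these 2 overlapped. Slco1c1 came next at 14.4 ± 2.25 FPKM, apart from Slc2a1. It was followed by Podxl (12.5 ± 1.03), Mfsd2a (11.9 ± 1.95), Slco1a4 (9.004 ± 2.10) and Pecam1 (8.55 ± 1.60), where each gene overlapped with its neighbour in the order. Abcb1a (4.54 ± 1.15 FPKM) and Cdh5 (3.997 ± 0.459 FPKM) overlapped with each other and lay below Pecam1, and Ocln (1.88 ± 0.459 FPKM) was the lowest, apart from Cdh5. In KO tumors the order was the same except that Slco1a4 (10.6 ± 3.73 FPKM) stood above Podxl (7.92 ± 2.09) and Mfsd2a (7.83 ± 2.17), with overlapping libraries. In KO 2 Slco1a4 (7.41 FPKM) was below both Podxl (10.1 FPKM) and Mfsd2a (10.1 FPKM). Defining endothelial genes were thus read in every library, among them Cldn5 at 18.0 to 41.5 FPKM.

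The 30 further pan-endothelial genes also split in direction. Over the 6 libraries the fitted level was lower for 18 and higher for 12, with a median log2 fold change of -0.10 and none called (before adjustment 2 lower and 4 higher genes passed a p of 0.05, edgeR, against 11.9% and 15.2% of all genes). DESeq2 called 2 and edgeR's exact test called 1 of them, against 7.83% and 0.748% of all genes. Without KO 2, 3 fell and 6 rose, against 28.3% and 24.5% of all genes. Cd93, a surface lectin of activated endothelium, was the lowest, at 35.2, 86.6 and 64.1 CPM in WT and 12.7, 25.3 and 7.65 CPM in KO tumors. Its log2 fold change was -2.05 over the 6 libraries (SE 0.54, adjusted p = 0.184, edgeR) and -2.61 without KO 2 (adjusted p = 0.0108). Cd93 is also expressed by myeloid cells. Without KO 2, Ecscr (-1.34, adjusted p = 0.0456, edgeR), which modulates endothelial chemotaxis, was also lower. At the upper end, Sox17, a transcription factor of arterial endothelium, had 3.33, 3.20 and 3.21 CPM in WT and 7.53, 4.05 and 5.26 CPM in KO tumors, and rose by 0.98 without KO 2 (adjusted p = 0.0260, edgeR). Cd34, the most abundant gene of the list, had 39.4, 35.9 and 52.0 CPM in WT and 87.4, 40.1 and 78.7 CPM in KO tumors, and rose by 0.97 without KO 2 (adjusted p = 0.0127, edgeR). She, an adaptor protein gene, had a log2 fold change of 0.75 over the 6 libraries and 0.94 without KO 2 (adjusted p = 0.0511). Kdr, the main VEGF receptor, had 19.0, 35.3 and 38.0 CPM in WT and 23.0, 27.9 and 14.8 CPM in KO tumors, and its log2 fold change of -0.51 (adjusted p = 0.312) did not pass, nor did -0.70 (adjusted p = 0.143) without KO 2.

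**Figure D5:**
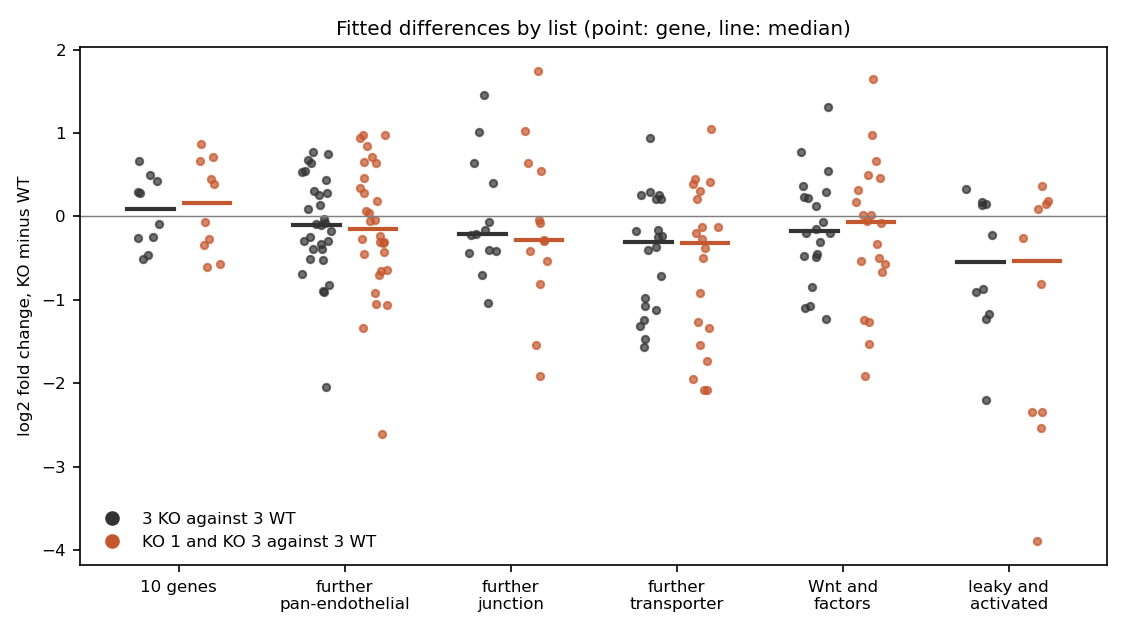
Log2 fold change (KO minus WT) of the 10 genes and of 5 further lists of vascular genes, 1 point per gene, over all 6 libraries (black) and with KO 2 left out (orange), with bars at the medians. The medians of the 10 genes are 0.10 and 0.16, and those of the 20 further transporters are -0.30 and -0.32.

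Of 13 further junction genes, 9 had a lower and 4 a higher fitted level over the 6 libraries (median -0.21, edgeR). None was called, and before adjustment 3 lower and 1 higher gene passed a p of 0.05, against 11.9% and 15.2% of all genes. Without KO 2, 5 fell and 1 rose, against 28.3% and 24.5% of all genes. Jam3, a junctional adhesion molecule, had 91.5, 158.6 and 128.3 CPM in WT and 49.2, 100.8 and 37.0 CPM in KO tumors, and fell by 1.55 without KO 2 (adjusted p = 0.0112, edgeR). Tjp3 fell by 1.91 in that comparison (adjusted p = 0.0177), from a level of 1.34 to 2.52 CPM in WT. Marveld3, a relative of occludin, rose by 1.75 (adjusted p = 0.0249), from 0.207 to 0.571 CPM in WT. Tjp1, which encodes the scaffold ZO-1, had 177.8, 167.4 and 181.5 CPM in WT and 148.6, 169.9 and 138.9 CPM in KO tumors (log2 fold change -0.22, adjusted p = 0.278, edgeR, and -0.28 (adjusted p = 0.120) without KO 2). Cldn1 had a log2 fold change of 1.01 (adjusted p = 0.185), and 1.02 (adjusted p = 0.119) without KO 2, at 0.465 to 2.22 CPM, and Cldn3 was not analysed here.

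Of 20 further transporter genes, 14 had a lower and 6 a higher fitted level over the 6 libraries (median -0.30, edgeR). None was called, and before adjustment 8 lower and 1 higher gene passed a p of 0.05, where 11.9% and 15.2% of all genes did. Without KO 2, 8 fell and 2 rose (28.3% and 24.5% of all genes). Over the 4 libraries of that study table, 5 fell and 0 rose (13.9% and 2.87% of all genes). Slc7a5, the large neutral amino acid transporter LAT1, had 201.3, 316.2 and 191.6 CPM in WT and 60.5, 149.2 and 50.8 CPM in KO tumors, and fell by 2.08 without KO 2 (adjusted p = 0.00798, edgeR). Its heavy chain Slc3a2 fell by 0.92 in that comparison (adjusted p = 0.0199) and the glutamine carrier Slc38a5 by 1.95 (adjusted p = 0.020). Slc22a8, an organic anion transporter, had 11.2, 9.20 and 6.36 CPM in WT and 15.6, 15.1 and 21.2 CPM in KO tumors, above all WT libraries in all 3, as were 13.2% of all genes tested. Slc22a8 rose by 1.05 without KO 2 (adjusted p = 0.0284). Slc19a3, a thiamine transporter, had a log2 fold change of 0.29 (adjusted p = 0.456), and 0.45 (adjusted p = 0.225) without KO 2. Several of these genes, LAT1 among them, are also used by dividing cells.

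Of 20 genes of Wnt and beta-catenin signaling and of barrier transcription factors, 12 had a lower and 8 a higher fitted level over the 6 libraries (median -0.17, edgeR). None was called, and before adjustment 5 lower and 3 higher genes passed a p of 0.05, beside 11.9% and 15.2% of all genes. Without KO 2, 5 fell and 3 rose, beside 28.3% and 24.5% of all genes. Tspan12, a partner of the receptor Frizzled-4, had 64.5, 111.9 and 116.3 CPM in WT and 26.9, 75.1 and 24.7 CPM in KO tumors, and fell by 1.92 without KO 2 (adjusted p = 0.00877, edgeR). Tcf7l1, a factor that represses Wnt targets, fell by 1.53 (adjusted p = 0.00845), and Notum, a secreted Wnt inhibitor, rose by 1.65 (adjusted p = 0.0137). Lef1, the endothelial Wnt effector, had 5.47, 4.03 and 5.13 CPM in WT and 5.31, 6.41 and 5.67 CPM in KO tumors (log2 fold change 0.23, adjusted p = 0.450, edgeR, and 0.17 (adjusted p = 0.571) without KO 2). Ctnnb1, beta-catenin itself, had a log2 fold change of -0.49 (adjusted p = 0.191), and -0.57 (adjusted p = 0.0671) without KO 2, and it is expressed by most cells.

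Among 10 genes of leaky or activated endothelium, Esm1 among them, 6 had a lower and 4 a higher fitted level over the 6 libraries (median -0.54, edgeR). None was called, and none passed a p of 0.05 before adjustment, while 11.9% of all genes were lower and 15.2% higher at that p. Without KO 2, 4 fell and 0 rose, while 28.3% and 24.5% of all genes did. Angpt2, a destabiliser of vessels, had 9.09, 11.5 and 19.4 CPM in WT and 3.19, 12.7 and 1.41 CPM in KO tumors, and fell by 2.53 without KO 2 (adjusted p = 0.0142, edgeR). Vcam1, an adhesion molecule for leukocytes, had 115.4, 221.1 and 190.9 CPM in WT and 37.2, 169.2 and 31.9 CPM in KO tumors, and fell by 2.34 (adjusted p = 0.00798). Plvap, which forms the diaphragms of fenestrated and leaky vessels, had 7.42, 5.58 and 8.24 CPM in WT and 9.87, 8.72 and 8.38 CPM in KO tumors. In TMM-scaled CPM the level of Plvap was higher in each KO library than in each WT library, as it was for 13.2% of all genes tested. KO 3 was barely above WT 3, and that order depends on their TMM factors of 0.864 and 1.07. The log2 fold change of Plvap, 0.33 (SE 0.22, adjusted p = 0.307, edgeR), did not pass, nor did 0.37 (adjusted p = 0.251) without KO 2. Apln, a ligand of sprouting vessels, had a log2 fold change of 0.17 (adjusted p = 0.705), and 0.15 (adjusted p = 0.747) without KO 2. Sele and Selp were not analysed here.

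For each list of this paragraph, the summed levels of KO 1 and KO 3 lay outside the WT range. KO 2 lay inside it for the neuron, proliferation and glioma cell lists, but above it for the astrocyte and the microglia and macrophage lists. The summed level of 16 neuron genes was 2251 to 6860 CPM in WT, 15150 and 18010 CPM in KO 1 and KO 3, and 5686 CPM in KO 2, and all 16 were higher in KO over the 6 libraries (14 called without KO 2). The 12 astrocyte genes summed to 3595 to 4574 CPM in WT and to 6994, 4829 and 6245 CPM in KO 1, KO 2 and KO 3 (2 fell and 4 rose without KO 2). The 15 proliferation genes summed to 1531 to 2784 CPM in WT, 183.6 and 79.8 CPM in KO 1 and KO 3, and 1704 CPM in KO 2, and all 15 fell without KO 2. The 10 glioma cell and neural progenitor genes summed to 2847 to 3802 CPM in WT, 1339 and 1078 CPM in KO 1 and KO 3 and 3318 CPM in KO 2 (8 fell). The 14 microglia and macrophage genes summed to 1120 to 1199 CPM in WT, 644.5 and 585.8 CPM in KO 1 and KO 3 and 1539 CPM in KO 2 (9 fell and 1 rose). These calls without KO 2 stand beside 28.3% of all genes called lower and 24.5% called higher. The part of these cell types in the differences of the 10 genes was not tested.

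The 14 mural cell genes, which mark the pericytes and smooth muscle of vessels, summed to 418.3 to 540.7 CPM in WT and to 344.7, 568.6 and 266.5 CPM in KO 1, KO 2 and KO 3 (3 fell and 3 rose without KO 2, beside 28.3% and 24.5% of all genes). Vtn, a pericyte gene in brain, was above all WT libraries in each KO library, at 43.8, 41.7 and 52.6 against 75.8, 69.6 and 78.9 CPM, as were 13.2% of all genes tested. Vtn rose by 0.75 without KO 2 (adjusted p = 0.0126, edgeR). Cspg4, which glioma cells and their progenitors also express, fell by 2.53 (adjusted p = 0.00798). The 3 platelet and megakaryocyte genes in the table summed to 10.03 to 15.6 CPM in WT and 18.2 to 22.9 CPM in KO, and 1 of them rose without KO 2. Of the choroid plexus and ependyma list, Ttr had 354.0 CPM in WT 1 and 0.775 to 6.33 CPM in the other libraries. All 7 tested genes of that list had a lower fitted level in KO tumors, but without WT 1 only 2 were lower and 5 were higher. 1 of the 7 fell without KO 2. Slco1c1, which choroid plexus also uses, stood at 44.0 CPM in WT 1, between WT 3 and WT 2, and its log2 fold change without WT 1 was 0.28 (adjusted p = 0.458), as with it.

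The scaling of the libraries bore on the sign of the median of the 10 genes, not on that of any single gene. Without TMM factors, scaled by total counts alone and with KO 2 left out, the median log2 fold change of all genes moved from -0.02 to -0.29 and that of the 10 genes from 0.16 to -0.10, and the genes called went from 4608 lower and 3986 higher to 6014 lower and 2526 higher. Podxl (-0.87, adjusted p = 0.0105, edgeR) and Mfsd2a (-0.84, adjusted p = 0.0239) remained past the threshold under that scaling, whereas Slco1a4 (0.44, adjusted p = 0.185) and Abcb1a (0.61, adjusted p = 0.0808) did not. Relative to the median of all genes the differences were nearly equal under both scalings: Podxl stood at -0.59 and -0.58, and Abcb1a at 0.89 under either. A change of scaling shifts all genes by nearly the same amount, so this near equality follows from the subtraction and tests nothing. None of the 10 genes changed sign under any scaling that was tried.

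The profile of a gene over the 6 libraries was also compared with those of 15303 genes of at least 1 CPM, by the root mean square difference of centred log2(CPM + 0.5) values. The genes most like Cdh5, whose profile was nearly flat, were Dhx32 (difference 0.015), Tmem192, Mrps12, Tmem167 and Cox7b (0.031). The closest of the other 9 genes to Cdh5 was Pecam1, at rank 4462. Those most like Slc2a1 were Slc25a33 (0.034), Stx18, Osbpl9, Gm14325 and Tmem67 (0.046), and the closest of the 9 was Slco1c1 at rank 1489. Those most like Slco1c1 were Fgf18, 1700048O20Rik, B930059L03Rik, Acrbp and Hepacam, the last an adhesion protein of astrocytes. The closest of the 9 to Slco1c1 were Slc2a1 at rank 142, Ocln at rank 191 and Slco1a4 at rank 527. The 5 nearest genes of each held no other member of the group, and likeness over 6 libraries that share group, composition and depth is a description only.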

How the data were processed

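RNA-seq counts of 6 tumor libraries, grouped by host genotype from the sample labels, were analysed. The deposited counts are whole reads per gene, which the authors obtained with HTSeq from uniquely mapped reads. The labels name CASAVA 1.8.2, edgeR, mm10 and a NEBNext Ultra RNA kit, whereas the paper's methods name hg38 and an Ovation Ultralow kit. The symbols of the table are those of mouse genes. The authors computed the FPKM values from these counts, gene lengths and total counts. Every listed gene had reads in 4 or more libraries and reached 5 reads in 1 of them. The authors' normalized columns, fold changes, p-values and false discovery rates were not used.

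A quasi-likelihood model (edgeR 4.0.16, R 4.3.3) was fitted to genes kept by filterByExpr (count 10, total 15), with TMM factors and p-values adjusted by Benjamini-Hochberg over the whole table. Genes were called at an adjusted p under 0.05. A standard error is the size of the log2 fold change over the square root of F. No source says that same-group tumors came from separate cell batches, so p-values measure the spread between these tumors. The fit was tested on simulated data with known changes. Simulated libraries of a group shared the same expected levels, so this does not cover a group as uneven as the KO libraries. Alternatives were RLE, upper quartile and total count scaling, other filters, leaving out libraries, a replicate block, DESeq2 1.42.0, edgeR's exact test and limma-voom (limma 3.58.1). Total count scaling, and the other tools and scalings with KO 2 left out, were chosen after seeing the data. The 10 genes and the 15 lists, the 10 included, were chosen with earlier results of these data known. Of each other list the text names genes among the 2 lowest, the 2 highest and the most abundant, besides Esm1, Plvap, Kdr, Lef1, paralogs, overlapping genes and the 5 nearest profiles of 3 genes. Positions are from GRCm38 (GENCODE vM21) and promoters from RefSeq (GRCm38.p6).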

Additional observations from a re-analysis of the deposited data

How the results depend on the processing

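The 10 genes kept the sign of their log2 fold change in all 22 alternatives, and 0 were called over 6 libraries by any test or scaling tried. Leaving out KO 2 moved the counts of called genes, and the cause was not tested. Leaving out 1 library at a time, the genes called over the whole table ranged from 0 to 8594, those of the 10 genes from 0 to 4 and those of the 30 further pan-endothelial genes from 0 to 9, and each of these counts was 0 except without KO 2. The median of the further pan-endothelial genes ranged from -0.26 without WT 1 to 0.045 without WT 3, and that of the 10 genes from -0.01 without KO 1 to 0.16 without KO 2. With WT 1, WT 2, KO 1 and KO 3 only, 2708 genes and 2 further pan-endothelial genes were called. Over 6 libraries DESeq2 called 1206 genes, 2 of them further pan-endothelial, and edgeR's exact test 121 and 1. With KO 2 left out, DESeq2 called 9214 genes, 5 of the 10 and 10 further pan-endothelial genes. The exact test called 8965, 4 and 11, limma-voom 8767, 3 and 8, RLE scaling 8642, 4 and 10, upper quartile scaling 8591, 3 and 9, and total count scaling 8540, 2 and 7. Total count scaling gave the 10 genes a median of -0.071 over 6 libraries and -0.10 without KO 2, and the further pan-endothelial genes -0.42 without KO 2. The ratio of Cdh5 to the further pan-endothelial genes, 0.03, lay between -0.070 and 0.094 when 1 library was left out, with the sign turned without WT 2 and without KO 3. With the replicate number as a replicate block, 0 of the 10 genes and 0 of all genes were called and the median of the 10 was 0.09. The labels give no pairing beyond the shared number. Deviations of same-numbered libraries from their group means correlated at 0.60, 0.64 and -0.25 over genes. Those of WT 1 and KO 3, of different number, correlated at 0.59, so these values cannot settle whether a pairing exists. Of the 10 genes, depth limits Ocln most, with 82 to 182 reads per library.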
